A study of Mus musculus with 3 samples.

Results

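Smad3 and JMJD3 peaks whose closest transcription start belongs to a non-coding transcript were taken from 2 ChIP-seq peak lists of mouse cortical neural stem cells. A peak was a member if the deposited identifier of its closest transcript began with NR, the RefSeq prefix for non-coding RNA, and the gene name did not mark a microRNA or a small nuclear, nucleolar, Cajal body, Y or 4.5S RNA. This gave 4171 of 98086 Smad3 peaks (4.25%) and 2777 of 63154 JMJD3 peaks (4.40%). Together the 6948 member peaks, of 161240 in all, named 760 genes through 793 transcripts.

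The cells were wild-type neural stem cells from the cerebral cortex of E12.5 embryos, kept in EGF at 20 ng/ml and FGF at 10 ng/ml. Both immunoprecipitations were from cells given TGFb at 5 ng/ml, for 30 minutes according to the series text. The labels name 3 libraries, 1 each of Smad3, JMJD3 and input DNA, and the input library was not analysed here. With 1 library per antibody and no untreated library, no value below has a replicate error, no difference between antibodies or between gene groups was tested, and no value shows an effect of TGFb. Intervals are exact Clopper-Pearson 95% intervals and cover counting error only. The lists give peak positions without height or read number, so the depth behind a peak is unknown, and the width of its region, after joining peaks of the same list at most 10 bp apart, was used to rank peaks.

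Long non-coding RNAs are transcribed by RNA polymerase II, usually capped and often spliced, but are not translated into a long protein. Some act in the nucleus, as Neat1 does in building paraspeckles and Xist does in silencing an X chromosome, some mainly carry small nucleolar RNAs in their introns, and many start head to head with a coding gene from a shared promoter region. Smad3 carries TGF-beta receptor signals to DNA, and JMJD3 removes methyl groups from lysine 27 of histone H3, a mark of Polycomb repression.

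The label of long non-coding RNA held for part of the genes only. By Entrez ID, 739 of 760 genes (97.2%) matched the RefSeq gene table. RefSeq typed 431 of the 760 as long non-coding (56.7%), 160 as protein-coding genes that also have a non-coding transcript (21.1%), 142 as pseudogenes (18.7%) and 6 as short structural RNAs, and 21 were not matched. The 431 long non-coding genes held 67.3% of the member Smad3 peaks and 66.8% of the member JMJD3 peaks. Clone names ending in Rik made up 334 of the genes and Gm gene models 152. For 16 genes the deposited transcript lay at several loci or on another chromosome than in RefSeq, so their peaks are uncertain.

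The promoters of 6 members are shown because the results turn on them. Malat1, B330016D10Rik, Mir22hg (2210403K04Rik in the files) and C630043F03Rik had among the widest promoter regions, Gas5 had the widest Smad3 and JMJD3 promoter regions of the snoRNA host genes, and E130114P18Rik was among the 8 members with the most peaks. Sequences are from the RefSeq promoter table of GRCm38.p6, 5′ to 3′ on the gene's strand, from 250 bases before to 50 bases after the start, at chr19:5802623-5802922 (minus strand), chr1:161034351-161034650 (plus, 1 of 2 starts in the table), chr4:141545912-141546211 (plus), chr11:75461289-75461588 (plus), chr4:72200994-72201293 (plus) and chr4:97584542-97584841 (minus). Capitals mark letters known to be bound by SMAD proteins, CAGAC (the SMAD box) and 2 GC-rich elements, GGCGC for one and GGCCG for the other. Both strands were searched, so the reverse complements are in capitals too: GTCTG for the SMAD box, while GCGCC stands for the first GC-rich element and CGGCC stands for the second. GC-rich matches overlap each other in some stretches and were then all counted.
Malat1: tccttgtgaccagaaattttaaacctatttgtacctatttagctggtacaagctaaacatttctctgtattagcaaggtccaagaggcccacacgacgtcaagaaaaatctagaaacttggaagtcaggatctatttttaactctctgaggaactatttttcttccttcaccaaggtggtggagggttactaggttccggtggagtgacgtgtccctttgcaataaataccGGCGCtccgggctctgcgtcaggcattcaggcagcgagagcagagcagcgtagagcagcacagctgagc
Gas5: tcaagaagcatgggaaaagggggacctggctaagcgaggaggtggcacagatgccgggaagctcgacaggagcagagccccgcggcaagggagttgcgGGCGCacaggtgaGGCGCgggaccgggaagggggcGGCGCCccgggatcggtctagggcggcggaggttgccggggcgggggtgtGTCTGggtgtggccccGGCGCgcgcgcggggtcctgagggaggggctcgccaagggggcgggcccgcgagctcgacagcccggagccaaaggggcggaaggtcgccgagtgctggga
B330016D10Rik: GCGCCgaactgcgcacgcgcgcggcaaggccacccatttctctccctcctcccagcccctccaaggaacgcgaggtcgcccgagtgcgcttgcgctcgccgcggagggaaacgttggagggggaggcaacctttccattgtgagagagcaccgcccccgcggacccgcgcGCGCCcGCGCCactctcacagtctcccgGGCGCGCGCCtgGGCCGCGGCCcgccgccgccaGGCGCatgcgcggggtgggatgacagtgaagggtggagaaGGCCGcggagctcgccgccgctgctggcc
Mir22hg: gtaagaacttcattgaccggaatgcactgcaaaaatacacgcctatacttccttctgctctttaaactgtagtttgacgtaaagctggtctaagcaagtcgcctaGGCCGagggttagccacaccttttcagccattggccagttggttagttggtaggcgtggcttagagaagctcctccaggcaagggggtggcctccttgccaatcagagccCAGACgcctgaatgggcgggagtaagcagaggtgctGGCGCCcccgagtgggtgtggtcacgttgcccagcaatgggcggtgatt
C630043F03Rik: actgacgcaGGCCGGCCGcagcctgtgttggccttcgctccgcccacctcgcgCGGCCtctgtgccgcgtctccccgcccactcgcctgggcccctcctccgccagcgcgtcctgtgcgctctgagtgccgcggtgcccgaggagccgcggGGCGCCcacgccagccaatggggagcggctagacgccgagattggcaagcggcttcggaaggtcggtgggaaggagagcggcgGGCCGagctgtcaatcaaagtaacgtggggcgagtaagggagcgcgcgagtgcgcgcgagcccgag
E130114P18Rik: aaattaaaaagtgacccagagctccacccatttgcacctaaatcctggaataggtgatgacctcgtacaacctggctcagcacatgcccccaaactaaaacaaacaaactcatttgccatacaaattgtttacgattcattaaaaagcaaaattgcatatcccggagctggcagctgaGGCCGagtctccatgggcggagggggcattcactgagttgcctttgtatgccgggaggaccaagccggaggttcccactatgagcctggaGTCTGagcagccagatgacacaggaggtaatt
The GC-rich letters occurred 9 times in B330016D10Rik, 7 times in C630043F03Rik, 5 times in Gas5, 3 times in Mir22hg and once in Malat1 and in E130114P18Rik. The SMAD box occurred in Gas5, Mir22hg and E130114P18Rik. Of all 27025 promoters of that length in the table, 49.7% held the SMAD box and 48.4% a GC-rich element, so these letters are common. Only 487 of 760 member genes (64.1%) had a promoter in the table, so a count of motifs over the members was void. A match describes letters and not a bound site, and the table's build is later than that of the peaks, whose coordinates are all mm9.

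Member promoters carried Smad3 more often than JMJD3, and most JMJD3 promoters also had Smad3. For members, only peaks that named the non-coding transcript counted, and over all genes any peak that named the gene. A Smad3 peak had its midpoint within 1 kb of the start in 441 of 760 members (58.0%, 54.4 to 61.6). Over all 16428 genes named in either list the share was 73.1%. For JMJD3 the count was 305 genes (40.1%, 36.6 to 43.7), against 57.1% of all genes. Both factors were at 280 members (36.8%), against 55.1% of all genes. Of the remaining members, 161 had Smad3 alone, 25 had JMJD3 alone and 294 had neither. Of the Smad3-bound members, 63.5% (58.8 to 68.0) also had JMJD3, against 75.4% over all Smad3-bound genes. Of the JMJD3-bound members, 91.8% (88.1 to 94.6) also had Smad3, against 96.6% over all JMJD3-bound genes.

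Each peak names only its closest transcript. A peak at a shared promoter can therefore credit a neighbouring gene or a coding transcript of the same gene. Counting any peak centred within 1 kb of a member's start, whichever gene it named, gave 479 genes with Smad3 (63.0%) against 74.5% of all genes, 356 with JMJD3 (46.8%) against 59.5%, and 346 with both (45.5%) against 58.4%. Of the 161 members with Smad3 alone, 37 had a JMJD3 peak there that named another gene or a coding transcript of the same gene. Of the 25 with JMJD3 alone, 15 had such a Smad3 peak. The Smad3 region at the promoter also named another gene in 101 of 441 members (22.9%), and the JMJD3 region in 67 of 305 (22.0%).

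Shares are given by RefSeq type beside those over all genes, 73.1% for Smad3 and 57.1% for JMJD3. Long non-coding genes had Smad3 at 258 of 431 promoters (59.9%, 55.1 to 64.5) and JMJD3 at 172 (39.9%, 35.3 to 44.7). Protein-coding genes with a non-coding transcript had Smad3 at 124 of 160 (77.5%, 70.2 to 83.7) and JMJD3 at 91 (56.9%, 48.8 to 64.7). These counts leave out peaks that named a coding transcript of the same gene, which the shares over all genes include. Pseudogenes were lowest of the 3 types, with Smad3 at 45 of 142 (31.7%, 24.1 to 40.0) and JMJD3 at 32 (22.5%, 16.0 to 30.3). By position, long non-coding genes had Smad3 at 62.9% and JMJD3 at 45.5%, protein-coding genes at 91.2% and 70.0%, and pseudogenes at 33.1% and 26.1%, against 74.5% and 59.5% of all genes.

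Peak coverage around the start was highest close to it, over starts that some peak named as closest. Over 797 member starts, Smad3 coverage was highest 50 bp upstream, where peaks covered 54.2% of member starts, against 67.5% of 17530 coding starts. JMJD3 coverage of member starts was highest at 41.8%, reached both 150 bp and 50 bp upstream, against 56.0% of coding starts 100 bp upstream.

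**Figure D1:**
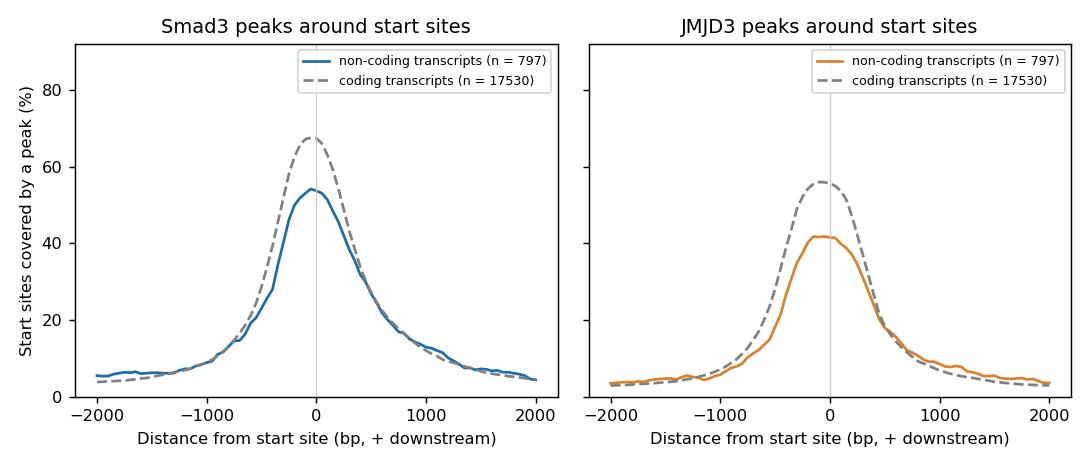
Share of start sites covered by a peak (percent) against distance from the start (bp, positive downstream), for Smad3 on the left and JMJD3 on the right. Solid lines are the 797 starts of member transcripts and dashed grey lines the 17530 coding starts. At their highest, the member lines reach 54.2% for Smad3 and 41.8% for JMJD3, below the highest points of the coding lines. Farther out the lines cross. At -2000 bp, members have 5.52% against 3.89% for Smad3 and 3.51% against 2.91% for JMJD3.

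Many long non-coding genes started beside a coding gene on the other strand. A coding start on the opposite strand lay within 1 kb of the start in 166 of 760 members (21.8%), with a median of 206.5 bp between the starts. Among RefSeq long non-coding genes this held for 131 of 431 (30.4%). By position, Smad3 lay at 126 of these 131 promoters (96.2%, 91.3 to 98.7) and JMJD3 at 105 (80.2%, 72.3 to 86.6). The other 300 long non-coding genes had Smad3 at 145 (48.3%, 42.6 to 54.1) and JMJD3 at 91 (30.3%, 25.2 to 35.9). Over all genes the shares by position were 74.5% for Smad3 and 59.5% for JMJD3. Counting only peaks that named the member, Smad3 lay at 114 of the 131 (87.0%) and 144 of the 300 (48.0%), and JMJD3 at 83 of the 131 (63.4%) and 89 of the 300 (29.7%). Starts were taken from the peak lists, so a coding start entered only if some peak named it as closest. The grouping is therefore not independent of the peaks, and the difference between the groups is a description only.

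**Figure D2:**
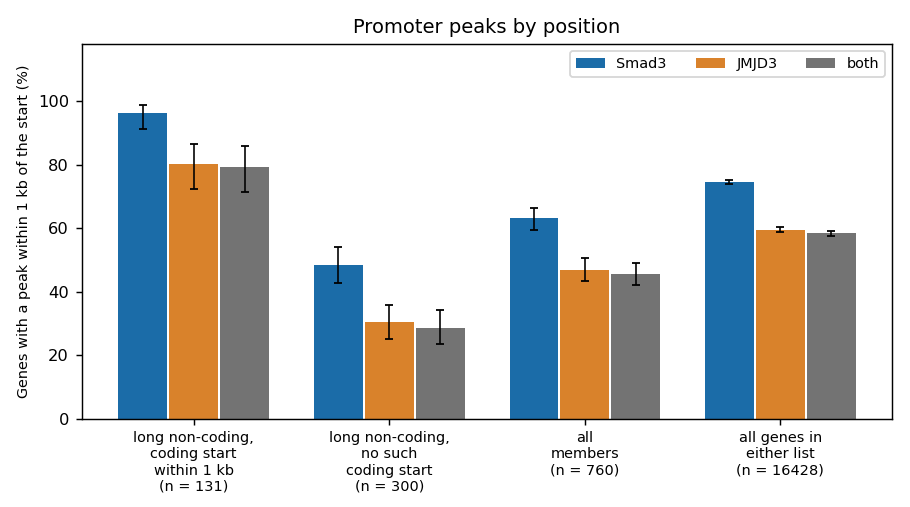
Share of genes with a peak centred within 1 kb of the start, by position (percent), for Smad3, JMJD3 and both, with exact 95% binomial intervals as bars. The 131 long non-coding genes beside an opposite-strand coding start reach 96.2% for Smad3 and 80.2% for JMJD3, and the 300 without one 48.3% and 30.3%.

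Promoter regions were wider at members with both factors than at members where only 1 factor named the non-coding transcript. At the 280 members with both, the median width of the Smad3 region was 885.5 bp, against 590 bp at the 161 with Smad3 alone. The median JMJD3 width was 930 bp with both and 671 bp at the 25 with JMJD3 alone. These groups are by name. The other factor lay within 1 kb, under another gene or transcript, at 37 of the 161 and 15 of the 25. Over all Smad3-bound members the median was 811 bp, against 760 bp over all Smad3-bound genes, and over all JMJD3-bound members 901 bp, against 860 bp. Across the 280 genes with both, the widths of the 2 regions had a Spearman rho of 0.59 and a Pearson r of 0.60 on the log2 scale, which describes genes that share the 2 libraries and is no replicate measure. JMJD3 was the wider in 153 of them and Smad3 in 123.

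**Figure D3:**
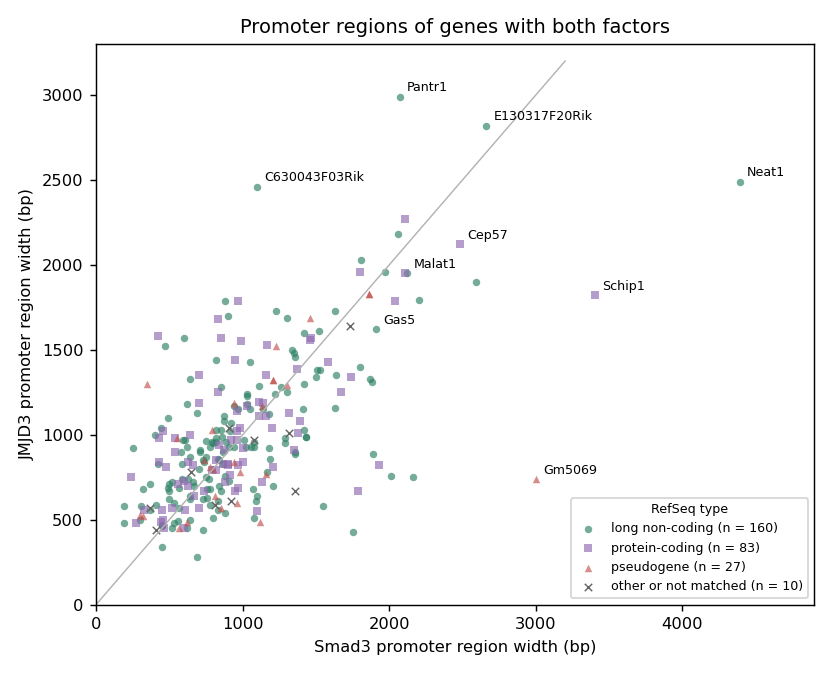
Width of the JMJD3 promoter region (bp) against that of the Smad3 region (bp) for the 280 member genes with both, marked by RefSeq type, with the line of equal width. Neat1 lies far to the right of the line at 4391 bp of Smad3 and 2490 bp of JMJD3, and Pantr1 and C630043F03Rik lie above it.

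Neat1, the scaffold of paraspeckles, had the widest Smad3 promoter region of any member. It ran over 4391 bp on mm9 (chr19:5845351-5849741, minus-strand gene), joined 12 peaks and lay almost wholly upstream of the listed start at 5845478. The JMJD3 region there was 2490 bp (chr19:5845281-5847770). In all, 15 Smad3 and 8 JMJD3 peaks named Neat1, of which 12 and 6 lay more than 1 kb upstream. Of the 15 Smad3 peaks, 9 overlapped JMJD3, near the 60.2% of all Smad3 peaks. All 8 JMJD3 peaks overlapped Smad3, against 81.4% of all JMJD3 peaks. Within the 3178 bp transcript beyond 1 kb there was 1 Smad3 peak and no JMJD3 peak.

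Malat1, an abundant RNA of nuclear speckles and the neighbour of Neat1, differed from it in where its Smad3 peaks lay. At the promoter Smad3 spanned 2120 bp (chr19:5802151-5804270) and JMJD3 1950 bp (chr19:5802301-5804250), over the start whose sequence is given above. It was named by 36 Smad3 peaks and 5 JMJD3 peaks. Inside the 6983 bp transcript beyond 1 kb there were 12 Smad3 peaks and 0 JMJD3 peaks, and past its end 10 Smad3 peaks and 0 JMJD3 peaks. None of these 22 Smad3 peaks overlapped JMJD3. Of all member Smad3 peaks in their own transcript beyond 1 kb 59.9% did, and of all Smad3 peaks 60.2%.

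**Figure D4:**
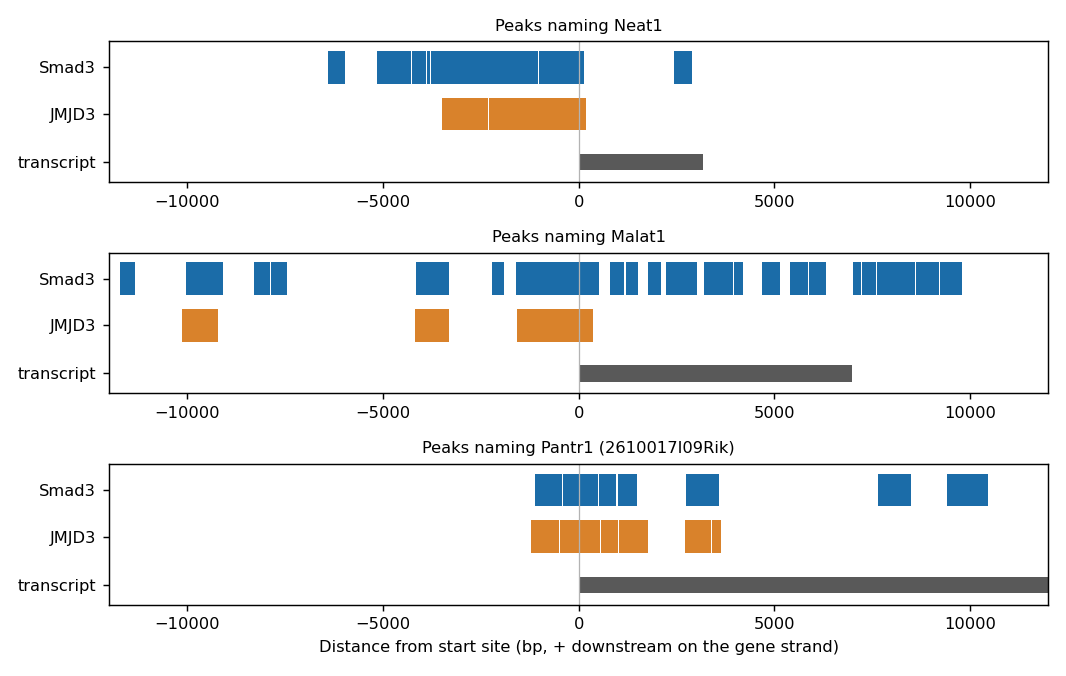
Peaks naming Neat1, Malat1 and Pantr1 as closest, by distance from the start (bp, positive downstream), with Smad3 in blue, JMJD3 in orange and the listed transcript in grey. Neat1 peaks pile up upstream of the start, Malat1 has Smad3 peaks without JMJD3 along its transcript and past its end, and at Pantr1 both factors flank the start.

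Of 9 listed nuclear and structural RNAs, 7 were members, all 7 with Smad3 (58.0% of members, 73.1% of all genes) and 3, Neat1, Malat1 and Tug1, with JMJD3 (40.1% of members, 57.1% of all genes). The JMJD3 count is near the share over members. Tug1 had a 781 bp Smad3 and a 930 bp JMJD3 region, 685 bp from the opposite start of Morc2a, whose name both regions also carried. Xist had 1 Smad3 peak of 241 bp, centred at -949 bp from its start (negative is upstream). Jpx, an RNA that activates Xist, had a 380 bp Smad3 region, and Firre, an X-linked RNA of nuclear architecture, one of 310 bp. Norad, which binds Pumilio proteins, had a 260 bp Smad3 region at its start, while 4 JMJD3 peaks named it from farther away. The widths at these 4 JMJD3-free starts lay below the 811 bp median of bound members.

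snoRNA host genes carry small nucleolar RNAs in their introns. Of 18 listed, 11 were members, 10 with Smad3, 6 with JMJD3 and 5 with both, against 73.1%, 57.1% and 55.1% of all genes, so the JMJD3 and shared counts are near the share over all genes. In all, 24 Smad3 and 8 JMJD3 peaks named them in all. Gas5, a growth-arrest RNA and snoRNA host, starts 906 bp from the opposite start of Zbtb37. Its Smad3 region was 1911 bp and its JMJD3 region 1621 bp, and both also named Zbtb37. The Gas5 start sequence above held 5 GC-rich elements and 1 SMAD box. Snhg8 had 1180 bp of Smad3 and 1120 bp of JMJD3. Snhg10, Snhg3 and Snhg6 also had both factors, with Smad3 regions of 590 to 740 bp. Snhg16, Snhg17, Snhg12, Snhg7 and Snhg1 had Smad3 alone by name. A JMJD3 peak lay at Snhg1, which starts 117 bp from Slc3a2, but it was listed under another gene. Snhg9, 97 bp from the opposite start of the ribosomal protein gene Rps2, had a 1090 bp JMJD3 region and its Smad3 peak was listed under another gene.

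Imprinted RNAs are expressed from 1 parental copy and silence neighbouring genes or arise beside them. Of 9 listed, 5 were members, 4 with Smad3, 3 with JMJD3 and 3 with both, against 73.1%, 57.1% and 55.1% of all genes. Peg13 had 690 bp of Smad3 and 281 bp of JMJD3, with 12 peaks of each factor naming it. Airn, which silences Igf2r, had 300 bp of Smad3 and 500 bp of JMJD3 at its start. Nespas, antisense to the Gnas locus, had 501 bp of Smad3 and 710 bp of JMJD3. Kcnq1ot1 had a 590 bp Smad3 region and no JMJD3 within 1 kb. H19 had 1 peak of each factor, centred at -2574 bp for Smad3 and at -3454 bp for JMJD3, and these did not overlap.

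Neural and developmental RNAs included genes with many peaks and none at the start. Of 36 listed names, some of them synonyms, 14 were members, 6 with Smad3 (58.0% of members, 73.1% of all genes), 5 with JMJD3 (40.1% of members, 57.1% of all genes) and 4 with both. By position 6 had Smad3 and 6 had JMJD3. The JMJD3 count is near the share over members. In all, 124 Smad3 and 92 JMJD3 peaks named them. Pantr1 starts 2320 bp from the opposite start of Pou3f3, a cortical transcription factor gene. Of its 29 Smad3 and 28 JMJD3 peaks, 19 and 22 overlapped the other factor, against 60.2% and 81.4% of all peaks. Its JMJD3 promoter region of 2990 bp (chr1:42749891-42752880) was the widest of any member, beside a Smad3 region of 2071 bp. Pvt1, in the Myc neighbourhood, had 320 bp of Smad3 and 680 bp of JMJD3, and 15 of its 15 Smad3 peaks lay within its own transcript. Miat had 410 bp of Smad3 and 590 bp of JMJD3, and Oip5os1, which binds miR-7, 491 bp and 1100 bp. Emx2os and Foxd2os, which start 54 bp and 390 bp from Emx2 and Foxd2, had Smad3 by name. Sox2ot, Rmst, Otx2os1, Pax6os1, Nkx2-2as, Dnm3os and Wt1os had neither factor within 1 kb. Sox2ot, which overlaps Sox2, had 23 Smad3 and 12 JMJD3 peaks, with the nearest Smad3 peak 5255 bp from the start. Of these, 11 Smad3 and all 12 JMJD3 peaks overlapped the other factor, against the same 60.2% and 81.4%. Pax6os1 had 8 Smad3 and 5 JMJD3 peaks in its transcript, the nearest of them 53711 bp from its start for Smad3.

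Among short structural RNAs that the rule admits, 4 of 6 listed were members, 3 with Smad3 and 1 with JMJD3, against 73.1% and 57.1% of all genes. Rmrp, the RNA of RNase MRP, had both, with 1081 bp of Smad3 and 971 bp of JMJD3, 344 bp from Ccdc107. Its Smad3 region also named Ccdc107. Terc, the telomerase RNA, had a 530 bp Smad3 region at its start and 23 Smad3 and 12 JMJD3 peaks in all. Vaultrc5, a vault RNA, had a 610 bp Smad3 region, and the entry named Bc1, a pseudogene copy in RefSeq, had 1 distant JMJD3 peak.

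Of the other 8 long non-coding genes with the widest promoter regions, 4 started within 1 kb of an opposite coding start. Neat1, Malat1 and Pantr1, described above and also among the widest, did not, so the 8 are not the full set. Among all RefSeq long non-coding members, 30.4% started beside such a coding start. At these 4 the JMJD3 region also named that coding gene, and so did the Smad3 region except at C630043F03Rik. E130317F20Rik, opposite Ptbp1 (a splicing regulator) at 367 bp, had 2661 bp of Smad3 and 2820 bp of JMJD3 (chr10:79315801-79318620). C630043F03Rik, 324 bp from the opposite start of the corepressor gene Tle1, had a JMJD3 region of 2460 bp, more than its 1100 bp of Smad3. 4932441J04Rik, 101 bp from Pcdh7, had 2030 bp of JMJD3 and 1810 bp of Smad3. Gt(ROSA)26Sor, the ROSA26 locus used for transgenes, lay 394 bp from Setd5, with 2180 bp of JMJD3 and 2060 bp of Smad3. Mir22hg, the miR-22 host, had 1960 bp of JMJD3 and 1970 bp of Smad3, and B330016D10Rik, 7564 bp from Spen, had 2590 bp of Smad3 and 1900 bp of JMJD3. 1500004A13Rik had 2200 bp of Smad3, and LOC100034739 had 2160 bp.

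Several of the widest belong to genes RefSeq does not type as long non-coding. Schip1 had the second widest Smad3 region, 3401 bp. Ankrd10 had 2110 bp of Smad3 and 2270 bp of JMJD3. Mvd, an enzyme of the mevalonate pathway, had 2110 bp of Smad3 and 1950 bp of JMJD3. Cep57, a centrosomal protein gene, had 2480 bp of Smad3 and 2121 bp of JMJD3, in regions that also named Fam76b. Abhd11 had 1800 bp of Smad3 and 1960 bp of JMJD3. Gm5069, a pseudogene 74 bp from Itpkb, had 3001 bp of Smad3, in a region that also named Itpkb, and 740 bp of JMJD3. Gm5643, a pseudogene whose copy is in doubt and which starts 22 bp from Hnrnpa1, had 2210 bp of Smad3. That region also named Hnrnpa1 and Cbx5. Among genes with 1 factor by name, the widest Smad3 regions were those of Gm5643, 4933439C10Rik (2030 bp), 9330151L19Rik (1780 bp), 2410006H16Rik (1551 bp) and Gm10125 (1520 bp). By position, JMJD3 lay at the first 3 of these and not at 2410006H16Rik or Gm10125. Those with JMJD3 alone by name were Angel2 (1440 bp), Atf5 (1290 bp), Pde2a (1150 bp), AI837181 (1140 bp) and Snhg9 (1090 bp). Angel2, Atf5, Pde2a and AI837181 are typed as protein-coding, and peaks that named their coding transcripts were not counted. Of the 5 genes, only Pde2a had no Smad3 peak by position. Its nearest Smad3 peak naming the non-coding transcript lay 4011 bp from the start.

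Most member peaks lay far from the start. Within 1 kb lay 18.3% of member Smad3 peaks, against 25.4% of all Smad3 peaks, and 16.5% of member JMJD3 peaks, against 25.2% of all JMJD3 peaks. Between 1 and 5 kb the shares were 10.9% of member Smad3 peaks, against 11.1%, and 8.97% of member JMJD3 peaks, against 8.7%. Between 5 and 50 kb they were 35.3%, against 34.9%, for Smad3 and 35.1%, against 34.3%, for JMJD3. Beyond 50 kb lay 35.4% of member Smad3 peaks, against 28.6%, and 39.4% of member JMJD3 peaks, against 31.8%. Member Smad3 peaks lay at a median of 25652 bp from the start, against 15332 bp for the other Smad3 peaks. Member JMJD3 peaks lay at a median of 30985 bp, against 19014 bp for the other JMJD3 peaks. Of member Smad3 peaks, 48.4% lay beyond 1 kb and in neither their own transcript nor a listed coding transcript. Another 20.5% lay beyond 1 kb, outside their own transcript but in a listed coding transcript, of the same or another gene. For JMJD3 these were 51.5% and 19.5%. Other non-coding transcripts were not checked. A further 536 Smad3 and 346 JMJD3 member peaks lay in their own transcript beyond 1 kb. At any distance, 28.6% of member Smad3 peaks lay in a listed coding transcript, against 50.3% of all Smad3 peaks, and 26.9% of member JMJD3 peaks, against 47.9% of all JMJD3 peaks. The gene named for a distant peak is the closest start and need not be the one the peak acts on.

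Over all distances, overlap with the other factor was near the level of all peaks for Smad3 and lower for JMJD3. Of member Smad3 peaks, 59.2% (57.7 to 60.7) shared at least 1 bp with a JMJD3 peak, against 60.2% of all Smad3 peaks. Of member JMJD3 peaks, 78.6% (77.0 to 80.1) shared a base with Smad3, against 81.4% of all. Within 1 kb of the start, 65.6% (62.1 to 68.9) of Smad3 and 93.4% (90.8 to 95.5) of JMJD3 member peaks overlapped, against 70.9% and 93.4% of all peaks. Between 1 and 5 kb, 53.3% (48.6 to 57.9) of Smad3 and 84.3% (79.2 to 88.6) of JMJD3 member peaks overlapped, against 48.8% and 82.4%. Between 5 and 50 kb these were 55.3% (52.7 to 57.9) and 74.9% (72.1 to 77.6), against 55.5% and 78%. Beyond 50 kb the shares were 61.7% (59.1 to 64.2) and 74.3% (71.6 to 76.9), against 60.8% and 75.2%.

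A few member genes collected many peaks. The median was 3 Smad3 and 2 JMJD3 peaks per gene for members and for other genes, and 102 of 760 members (13.4%) had 20 or more peaks in all, against 12.6% of other genes. The 8 members with the most held 612 of 6948 peaks (8.81%). C130026L21Rik had 69 Smad3 and 43 JMJD3 peaks, the Smad3 peaks spread between -67193 and 309582 bp from its start, with Mn1 the nearest coding start at 163395 bp. 3930402G23Rik, 79973 bp from the insulin receptor substrate gene Irs2, had 53 Smad3 and 41 JMJD3 peaks. E130114P18Rik, 2649 bp from the opposite start of the gliogenic factor gene Nfia, had 51 Smad3 and 27 JMJD3 peaks, all of them within listed coding transcripts. Of these, 28 Smad3 and 26 JMJD3 peaks overlapped the other factor, against 60.2% and 81.4% of all peaks. BC006965, with Sox9 the nearest coding start at 70853 bp, had 35 Smad3 and 28 JMJD3 peaks, none within 50 kb of its start and all downstream of it. Gm10125, 547 bp from the opposite start of Zeb1, had 45 Smad3 and 19 JMJD3 peaks. Of these, 14 and 9 overlapped the other factor, against the same 60.2% and 81.4%. H2afy3, a pseudogene far from Myc (234111 bp), had 44 and 31. 2610035D17Rik had 40 and 24, and 1700108F19Rik 38 and 24, for Smad3 and JMJD3.

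**Figure D5:**
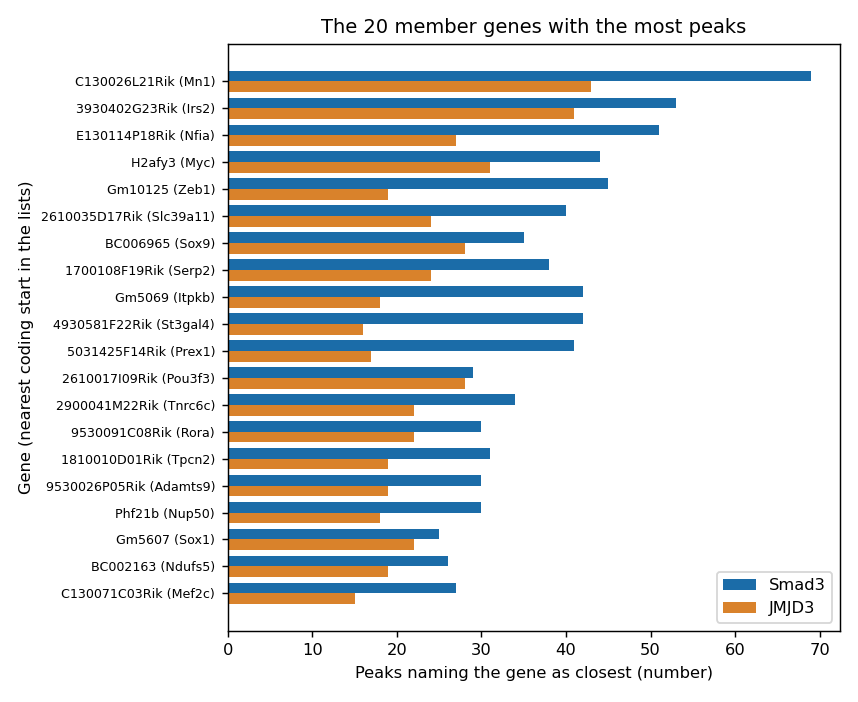
Number of Smad3 and JMJD3 peaks naming each of the 20 member genes with the most peaks, with the nearest coding start in the lists in brackets. C130026L21Rik stands first with 69 Smad3 and 43 JMJD3 peaks, and Smad3 has more peaks than JMJD3 in each gene shown.

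The labelled cell type was checked against promoter peaks, which are not expression. All 8 neural stem cell genes looked up, among them Nes, Sox2 and Pax6, had both factors within 1 kb of the start, and of 10 genes of neurons, oligodendrocytes, microglia and endothelium 2 had Smad3 and 1 had JMJD3. Over all genes the shares were 73.1% and 57.1%.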

How the data were processed

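ChIP-seq libraries of Smad3 and JMJD3 were used as 2 deposited peak lists, 1 library each. Bowtie 0.12.7, MACS 1.4, CASAVA and build mm9 are credited to the submitters' processing notes. Thresholds, each tool's role and any use of the input library: not given in the sources used here. Per the file headers, the authors list for each peak its position and the signed distance in bp from the closest start to the peak, with no height, fold, p-value or read number, so widths of joined regions replaced the planned score.

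Regions joined peaks at most 10 bp apart. A member gene was bound if a peak naming its non-coding transcript had its midpoint within 1 kb of the start. Over all genes, a peak naming any transcript of the gene counted. Values were computed with Python 3.11.15, pandas 2.3.3, NumPy 2.4.6 and SciPy 1.17.1. Joining, overlap and distance steps were tested on simulated data. Gene types and promoters came from RefSeq GRCm38.p6 tables, matched on Entrez ID or symbol, without conversion of coordinates. The text names the 12 members with the widest promoter regions per factor, the 8 with the most peaks, the 5 widest with 1 factor only, and gene lists of nuclear, imprinted, snoRNA host, neural and structural RNAs. The members and lists were chosen with earlier results of these data known. Alternatives changed the window, overlap, joining, gene types and denominator, and 2 were added after the data were seen (peaks by position, copies in doubt left out).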

Additional observations from a re-analysis of the deposited data

How the results depend on the processing

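Of 21 alternative counts of bound genes, 18 were within 1.5 times the reported count. Shares and medians were held to a narrower range, the reported value's 95% interval, and 15 of 36 stayed in it, so the same change can pass as a count and not as a share. With RefSeq non-coding RNA genes only, 260 had Smad3, 173 JMJD3 and 161 both, and the shares within 1 kb were 16.0% of Smad3 and 14.3% of JMJD3 peaks. Over all 12740 long non-coding genes of the RefSeq table, 2.03% had Smad3, 1.35% JMJD3 and 1.26% both, but the lists name 431 of these genes, and the others could not be counted as bound, so these values are no share of bound genes. By position, the shares were 63.0%, 46.8% and 45.5% of member genes. A reciprocal overlap of 50% left 37.4% of Smad3 and 56.0% of JMJD3 member peaks shared, and midpoints within 200 bp left 47.2% and 68.2%. With joined regions counted once, Smad3 overlap was 55.2%, the Smad3 share within 1 kb was 16.5% and the median was 2 Smad3 regions per gene. In the wider 50% of regions, 24.2% of Smad3 and 21.7% of JMJD3 peaks lay within 1 kb. Without joining, median widths were 350 bp for Smad3 and 480 bp for JMJD3, and joining at 100 bp gave 611 bp and 770 bp. Windows of 0.5, 2.5 and 5 kb gave 408 to 518 members with Smad3, 286 to 389 with JMJD3 and 256 to 362 with both. No paired analysis was possible because each antibody has 1 library and no test was run, so no replicate could be left out either. Depth is unknown, so a start without a peak is not shown to be unbound.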
